A study of Mus musculus with 3 samples.

Results

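The 10 genes described here belong to type 2 immunity and were followed across 3 mouse lung RNA libraries. They were taken by symbol from the 23183 genes with a value, and all 10 were present. They were the cytokines Il4, Il5 and Il13, the epithelial alarmins Il33 and Tslp, and the receptor chains Il4ra, Il13ra1, Il13ra2, Il1rl1 and Crlf2.

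All mice were female BALB/c, with an age of 10 weeks in the sample labels but 5 to 6 weeks in the housing protocol. RNA came from lung homogenate, and each of the 3 groups had 1 library. The control group is labelled only as control, with no vehicle named. The PM10 group received a certified reference dust of the PM10 size class (airborne particulate matter) through the nose, 4 times in 2 weeks, at either 100 or 200 µg in 20 µL saline. The OVA+PM10 group received the same dust and was also sensitised to ovalbumin (OVA, an egg-white protein) by 2 injections into the peritoneum, each of 20 µg with 1% aluminium hydroxide, the first on day 0 or day 1 (the texts differ) and the last on day 14. These mice then received 30 µL of OVA at 1 mg/mL through the nose on days 21, 22 and 23, and lungs were taken 2 days later. The labels give 5 mice per group and do not say which dust dose was sequenced or whether mice were pooled in a library. A library of mice given OVA alone was not analysed here, so OVA and the combination of OVA with dust cannot be told apart.

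In a type 2 response, stressed epithelium and stromal cells release IL-33 and TSLP, which act on group 2 innate lymphoid cells, T helper 2 cells, mast cells and dendritic cells. IL-33 binds ST2, the product of Il1rl1, paired with the accessory protein encoded by Il1rap, whereas TSLP binds the product of Crlf2 paired with the IL-7 receptor α chain encoded by Il7r. The lymphoid cells then make IL-4, IL-5 and IL-13. IL-5 sustains eosinophils. IL-4 signals through the IL-4 receptor α chain (Il4ra), paired with the common γ chain (Il2rg) or with Il13ra1. IL-13 signals through the pair of Il4ra and Il13ra1. Both cytokines activate the transcription factor STAT6. IL-13 receptor α2, the product of Il13ra2, binds IL-13 with high affinity and is known as a decoy receptor.

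Promoter stretches of 4 of these genes are shown first because Il4, Il13, Il13ra2 and Il5 had the highest plain FPKM ratios of the OVA+PM10 to the control library among the 10 genes (on the scale of FPKM + 1 used below, Il1rl1 and Il33 stood above Il5 and Il13ra2). Each is the 250 bases before an annotated RefSeq start on GRCm38.p6 (the assembly of mm10, strain C57BL/6J, not the BALB/c strain studied), written 5′ to 3′ on the gene's strand. Capitals mark matches on either strand to a STAT6-type palindrome (TTCNNNNGAA), a general STAT palindrome (TTCNNNGAA), a GATA motif (AGATAA) or an AP-1 motif (TGANTCA).
Il4, chr11:53618666-53618915, minus strand: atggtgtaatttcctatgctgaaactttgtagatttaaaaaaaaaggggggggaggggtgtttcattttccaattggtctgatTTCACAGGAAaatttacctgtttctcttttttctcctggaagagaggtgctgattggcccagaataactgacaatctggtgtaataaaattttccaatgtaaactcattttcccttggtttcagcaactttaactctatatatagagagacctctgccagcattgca
Il13, chr11:53634703-53634952, minus strand: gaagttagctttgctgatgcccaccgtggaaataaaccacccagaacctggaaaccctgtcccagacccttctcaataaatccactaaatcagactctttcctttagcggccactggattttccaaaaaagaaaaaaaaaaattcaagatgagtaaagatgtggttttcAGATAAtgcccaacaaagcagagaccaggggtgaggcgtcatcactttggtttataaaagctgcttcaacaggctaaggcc
Il5, chr11:53720544-53720793, plus strand: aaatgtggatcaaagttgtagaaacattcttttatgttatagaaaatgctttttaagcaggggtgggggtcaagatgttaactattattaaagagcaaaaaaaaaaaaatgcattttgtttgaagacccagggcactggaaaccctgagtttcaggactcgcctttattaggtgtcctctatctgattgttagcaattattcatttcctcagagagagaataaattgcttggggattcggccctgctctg
Il13ra2, chrX:147429193-147429442, minus strand: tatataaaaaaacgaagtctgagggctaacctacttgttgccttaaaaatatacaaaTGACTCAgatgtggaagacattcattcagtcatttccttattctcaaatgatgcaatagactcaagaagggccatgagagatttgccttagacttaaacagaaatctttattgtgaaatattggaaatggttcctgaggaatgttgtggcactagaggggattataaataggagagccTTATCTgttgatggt

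The Il4 stretch held 1 STAT6-type palindrome, TTCACAGGAA, whose first base lay 167 bases before the start. The stretch before another annotated Il4 start (chr11:53617339-53617588, not shown) held none of the 4 motifs. The Il13 stretch held 1 GATA match, 81 bases before the start. In the Il13ra2 stretch, an AP-1 match lay 193 bases and a GATA match on the other strand 15 bases before the start, and the Il5 stretch held none of the 4 motifs. Among 32851 RefSeq promoter stretches of the same length, 5.85% held the STAT6-type palindrome, 7.02% the general one, 9.99% the GATA motif and 6.75% the AP-1 motif. These are matches of letters, and no binding was measured. Each motif was searched only as written above, so variants of it were not counted. The Il5 stretch, for example, holds ctatct, which reads AGATAG on the other strand and differs from the searched GATA motif in its last base. Of the 10 genes, 9 had a promoter entry. Among the stretches not shown here, the first Il33 start also had a STAT6-type palindrome, TTCTGGGGAA, 36 bases upstream. Both annotated Il1rl1 starts had a GATA match, 217 and 103 bases upstream. The other stretches not shown held none of the 4 motifs.

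Values were FPKM (reads or fragments per kilobase of transcript and per 1000000 mapped). Below, triplets of values follow the order control, PM10, OVA+PM10. The lowest values implied about 20.0, 13.1 and 15.3 times 1000000 reads. A single read in a transcript of 1 kilobase was worth about 0.0501, 0.0762 and 0.0655 FPKM. With 1 library per group, no difference below has a replicate check and no test was possible, so a ratio describes a pair of libraries only. A gene counted as higher or lower when the log2 ratio of FPKM + 1 was at least 1 in size (2-fold) and its higher value reached 1 FPKM. Ratios also followed transcript length: against the control, the genes with the shortest transcripts (up to 1277 bases) had a median of 1.08 in the PM10 library, and those with the longest one of -0.77. In the OVA+PM10 library the shortest genes had 0.62 against the control and -0.56 against the PM10 library.

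By level, the 10 genes fell into an abundant and a scarce set. In the control library the order was Il33 (33.6 FPKM), Il4ra (24.4), Il13ra1 (15.0), Crlf2 (14.9), Tslp (2.25), Il1rl1 (1.63), Il4 (0.223), Il5 (0.163), Il13 (0.130) and Il13ra2 (0.125). Without replicates, neighbours in this order cannot be ranked apart. The share of all genes below Il33 was 90.7%, 90.7% and 94.5%. The surfactant gene Sftpc, a marker of lung, had 22645, 56646 and 24439 FPKM. The cytokines rested on very few reads in the control library, about 3 for Il4, 5 for Il5 and 3 for Il13.

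**Figure D1:**
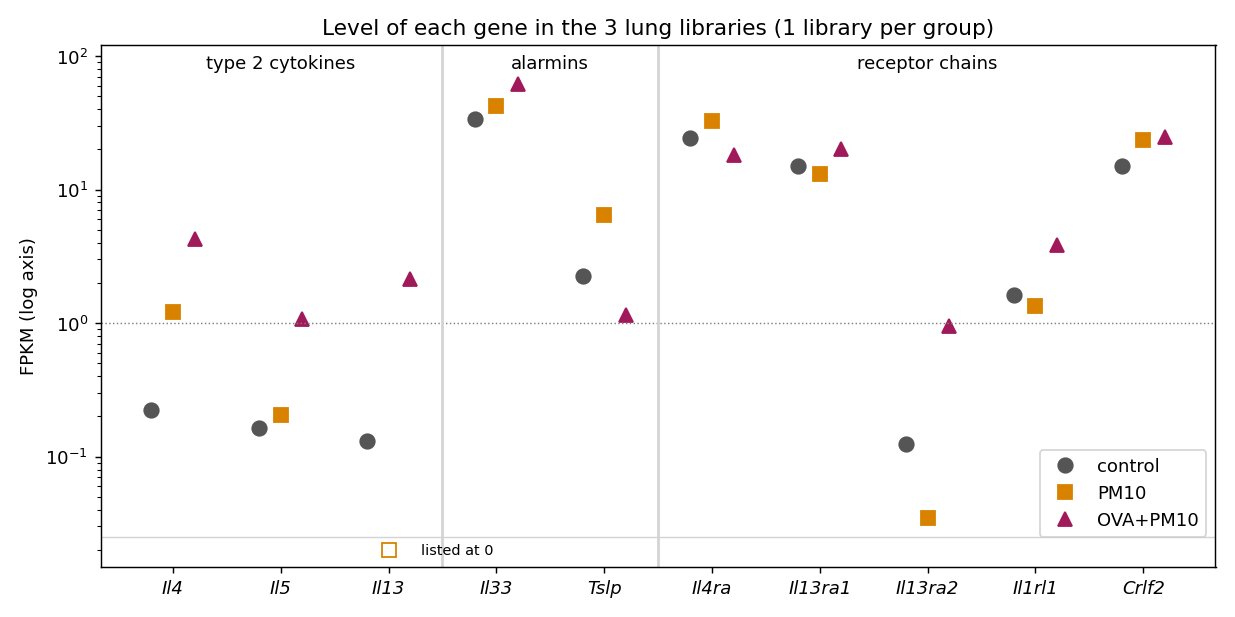
FPKM (log axis) of the 10 genes in the control (circles), PM10 (squares) and OVA+PM10 (triangles) libraries, 1 point per library with no error bars, and a dotted line at 1 FPKM. Il4, Il5, Il13 and Il13ra2 are highest in the OVA+PM10 library, Tslp is highest in the PM10 library, and Il13 is listed at 0 there.

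The 3 type 2 cytokines were highest in the OVA+PM10 library, and their ratios to both other libraries (for Il13, to the control alone) stayed above 0 under each pseudocount, each scaling and without the length trend. Il4, which drives T helper 2 fate and IgE class switching (chromosome 11, 53602982 to 53618669, minus strand, mm10), had 0.223 FPKM in the control, 1.204 in the PM10 and 4.28 in the OVA+PM10 library, or about 3, 10 and 40 reads. Its level in the OVA+PM10 library was 19.2 times that of the control library, and the log2 ratio of FPKM + 1 was 2.11. In the PM10 library Il4 stood between the others, with a log2 ratio to control of 0.85, below the 2-fold rule. With the trend over transcript length removed that ratio was -0.47, and with 0.25 FPKM added in place of 1 it was 1.62. Its transcripts are short, 605 bases for the longest.

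Il13, the main inducer of mucus and airway hyperreactivity (chromosome 11, 53631324 to 53634702, minus strand), had 0.130 FPKM in control lung and 2.13 FPKM in OVA+PM10 lung, about 3 and 39 reads. The PM10 library listed it at 0. The OVA+PM10 library stood 16.4 times above the control, a log2 ratio of 1.47, or 0.98 with the length trend removed, just short of 2-fold. No fold is given against the PM10 library, in which the gene was listed at 0.

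Il5, the eosinophil growth factor (chromosome 11, 53720794 to 53725106, plus strand), had 0.163, 0.205 and 1.07 FPKM, about 5, 4 and 25 reads. The plain ratio of OVA+PM10 to control was 6.54, but on the scale of FPKM + 1 the log2 ratio was 0.83 and did not reach 2-fold. The annotated antisense gene Gm12214 overlaps Il5, and the sources used here do not say if counting used strand, so reads of the pair may be mixed. The summed level of Il4, Il5 and Il13 was 0.516, 1.41 and 7.48 FPKM.

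The alarmins went different ways. Il33, a nuclear cytokine of alveolar type 2 cells, endothelium and fibroblasts that is released on damage (chromosome 19, 29925114 to 29960718, plus strand), had 33.6, 42.3 and 61.3 FPKM. Both ratios to control stayed within 2-fold, at 0.32 and 0.85 on the log2 scale. With libraries scaled to the same sum they were -0.89 and 0.22. Tslp, a cytokine of airway epithelium that activates dendritic cells, had 2.25, 6.45 and 1.15 FPKM, about 51, 96 and 20 reads. It was therefore highest in the PM10 library and lowest in the OVA+PM10 library. The log2 ratio of Tslp was 1.20 for PM10 against control, a call that ended with the length trend removed (0.29) or after scaling to the same sum (0.23). Between the exposed libraries it was -1.79, and it remained beyond 2-fold under both of these settings (-1.40 and -1.36). In OVA+PM10 relative to control lung it was -0.60, within 2-fold, but -1.12 with the length trend removed and -1.13 after scaling to the same sum. The level of Il33 exceeded that of Tslp 15.0, 6.55 and 53.5 times.

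Markers of cells that can make alarmins differed between the libraries too, and their part in these values was not tested. Of all genes tested, 13.6% were higher and 13.9% lower than control in PM10, and 9.95% and 8.68% in OVA+PM10. The summed level of 11 alveolar type 2 cell genes was 27889, 64276 and 31338 FPKM, most of it Sftpc. Of these genes 3 were higher and 1 lower than control in the PM10 library (median log2 ratio 0.08), and 1 was higher and 1 lower in OVA+PM10 (median -0.17). Scaled to the same sum, none was higher and 6 and 5 were lower. The 10 endothelial genes summed to 1648, 2461 and 868 FPKM, with 3 higher and 2 lower in PM10 and none higher and 5 lower in OVA+PM10. The 10 fibroblast genes summed to 1065, 1178 and 1233 FPKM, although 5 were lower and 2 higher in PM10 (median -1.04), with 3 higher and 3 lower in OVA+PM10 (median 0.48). Scaled to the same sum, no endothelial or fibroblast gene was higher than control in either library. The sum of 15 genes of stratified squamous epithelium was 4790 FPKM in the control library and 3.86 and 4.64 FPKM in the others, where 7 and 4 of them were listed at 0, Krt6a and Sprr3 in both. In the control library none of the 15 was listed at 0. Skeletal muscle genes (12 genes) likewise summed to 5032, 22.8 and 33.2 FPKM. The squamous and muscle genes were thus highest in the 1 control library, on which every ratio to control rests. Whether that sample held other tissue beside lung was not tested. In bulk RNA, fewer cells of a type, less RNA per cell and a different mix of tissue cannot be told apart.

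Among the receptor chains for IL-4 and IL-13, Il4ra and Il13ra1 stayed within 2-fold in every comparison on the values as deposited, but not after scaling to the same sum. Il4ra, the signalling chain shared by both cytokines (chromosome 7, 125552120 to 125579474, plus strand), had 24.4, 32.8 and 18.2 FPKM and was thus lowest in the OVA+PM10 library. Its log2 ratios were 0.41, -0.41 and, between the exposed libraries, -0.82. After scaling to the same sum the first was -0.80 and the second -1.04. Il13ra1, the partner chain that gives non-haematopoietic cells their response to IL-13 (chromosome X, 36112110 to 36171259, plus strand), had 15.0, 13.2 and 20.0 FPKM, with log2 ratios of -0.18, 0.39 and 0.57. After scaling to the same sum these were -1.35, -0.23 and 1.12, so that the first and last passed 2-fold and the second changed sign. The ratio of Il4ra to Il13ra1 was 1.63, 2.49 and 0.911.

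Il13ra2, the decoy chain (chromosome X, 147383476 to 147429192, minus strand), never reached 1 FPKM and so entered no count. It had 0.125, 0.035 and 0.950 FPKM, about 6, 1 and 33 reads. The plain ratio of OVA+PM10 to control was 7.60, and the log2 ratio of FPKM + 1 was 0.79, or 1.68 with 0.25 FPKM added. Il13ra1 exceeded it 120.1, 376 and 21.0 times, the second resting on a single Il13ra2 read.

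The alarmin receptors also differed from each other. Il1rl1, which encodes ST2 (chromosome 1, 40429570 to 40465415, plus strand), had 1.63, 1.35 and 3.83 FPKM. Its log2 ratio to control was -0.16 in PM10 and 0.88 in OVA+PM10, and that between the exposed libraries was 1.04, just past 2-fold. With the length trend removed, these were 0.26, 1.14 and 0.88, so that the call moved from the last comparison to the second. The gene makes a membrane form and a shorter soluble form, and values per gene do not separate them. Crlf2, the TSLP receptor chain (chromosome 5, 109554709 to 109558993, minus strand), had 14.9, 23.7 and 24.9 FPKM, within 2-fold throughout. Its log2 ratios to control were 0.63 for PM10 and 0.70 for OVA+PM10, but -0.55 and 0.09 after scaling to the same sum, and -0.06 and 0.26 with the length trend removed.

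In all, 1 of the 7 genes that reached 1 FPKM in the PM10 or control library was higher in PM10 (Tslp) and none was lower, whereas 13.6% of 13693 genes were higher and 13.9% lower. Il5, Il13 and Il13ra2 did not reach that level. For OVA+PM10 against control, 2 of 9 were higher (Il4 and Il13) and none was lower, beside 9.95% higher and 8.68% lower among 13877 genes. The median log2 ratio of the 9 was 0.83, against -0.0017 over all genes tested. Between OVA+PM10 and PM10, 3 of 9 were higher (Il4, Il13 and Il1rl1) and 1 was lower (Tslp), beside 11.8% higher and 9.00% lower among 13556 genes. Il13 enters this count only through the added 1 FPKM, over a value listed at 0. The values nearest the 2-fold line were 1.04 (Il1rl1) and 1.20 (Tslp) past it, and 0.88 (Il1rl1) and 0.85 (Il33) short of it. The PM10 and OVA+PM10 ratios share the control library, so their likeness is not a result.

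**Figure D2:**
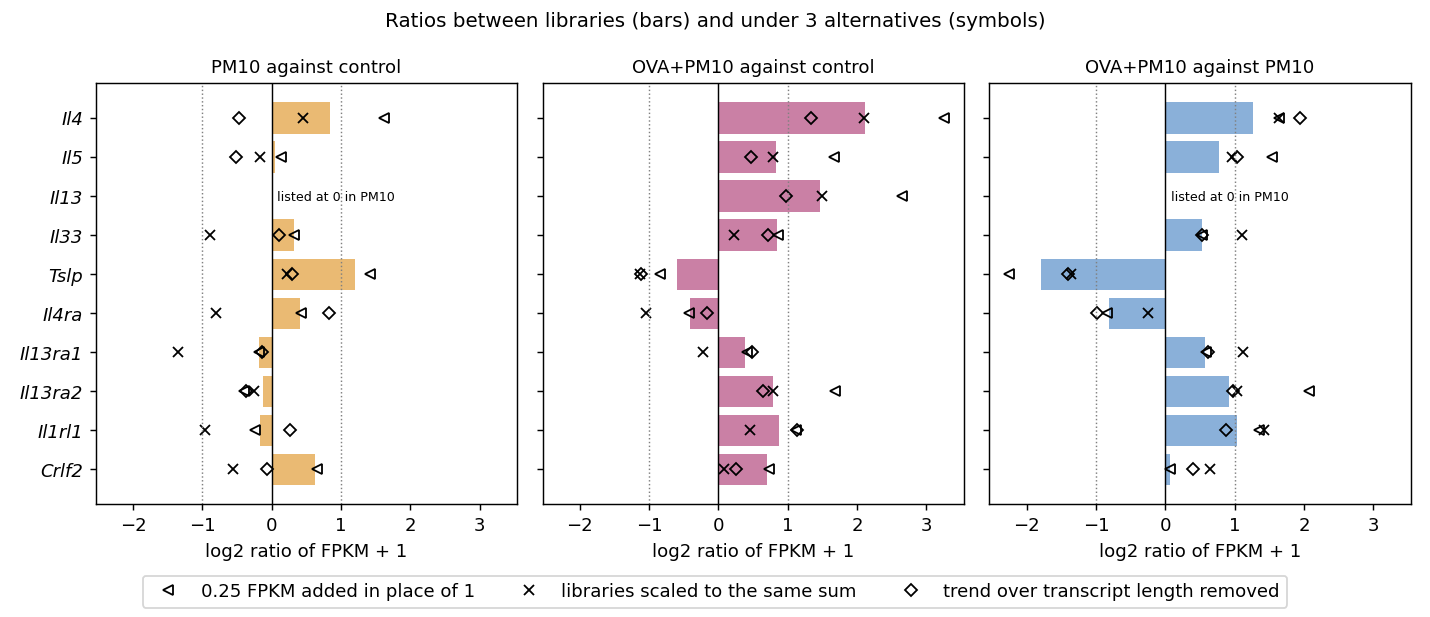
Log2 ratio of FPKM + 1 (horizontal axis) of the 10 genes in the 3 comparisons, as bars, with 3 alternative settings as symbols and dotted lines at 2-fold; no bar is drawn for Il13 where the PM10 library is involved. Il4 lies right of 0 in both OVA+PM10 panels under each symbol, and the PM10 bars of Il4, Il5, Il33, Il4ra, Il1rl1 and Crlf2 change side under at least 1 symbol.

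Il4, Il13 and Il5 lie in 1 cluster on chromosome 11 together with Rad50, a DNA repair gene whose end holds the locus control region, and Kif3a, a kinesin of cilia. The start of Il13 lay 16.0 kb and that of Il5 102 kb from that of Il4. Rad50, between Il13 and Il5, had 7.84, 6.76 and 5.07 FPKM, within 2-fold as deposited. After scaling to the same sum its log2 ratios to control were -1.30 in PM10 and -1.15 in OVA+PM10, past 2-fold. Kif3a had 6.37, 23.4 and 7.64 FPKM and was higher in the PM10 library (log2 ratio 1.73, or 0.59 after scaling to the same sum). Csf2, which encodes the growth factor GM-CSF, lay 631 kb away and was also highest in the PM10 library, at 1.85, 7.75 and 2.01 FPKM (log2 ratio to control 1.62, or 0.34 with the length trend removed). Il3 was listed at 0 in all libraries. The other neighbours held Irf1 at 58.4, 79.8 and 48.2 FPKM, Pdlim4 at 6.04, 8.49 and 11.6 FPKM and Sept8, lower in PM10 than in control (log2 ratio -1.09, but -0.82 with the length trend removed), at 17.2, 7.58 and 8.74 FPKM. Slc22a5 and P4ha2 stayed within 2-fold, although Slc22a5 had a log2 ratio of -1.25 for PM10 against control after scaling to the same sum. Uqcrq, a mitochondrial subunit, had 211, 766 and 438 FPKM. Of 9 measured neighbours, it was the 1 higher in the OVA+PM10 library than in the control, close to the share of all genes (9.95%). The log2 ratio of Uqcrq was 1.05, but 0.41 after scaling to the same sum. Slc22a4, Acsl6 and Gdf9 stayed below 1 FPKM.

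**Figure D3:**
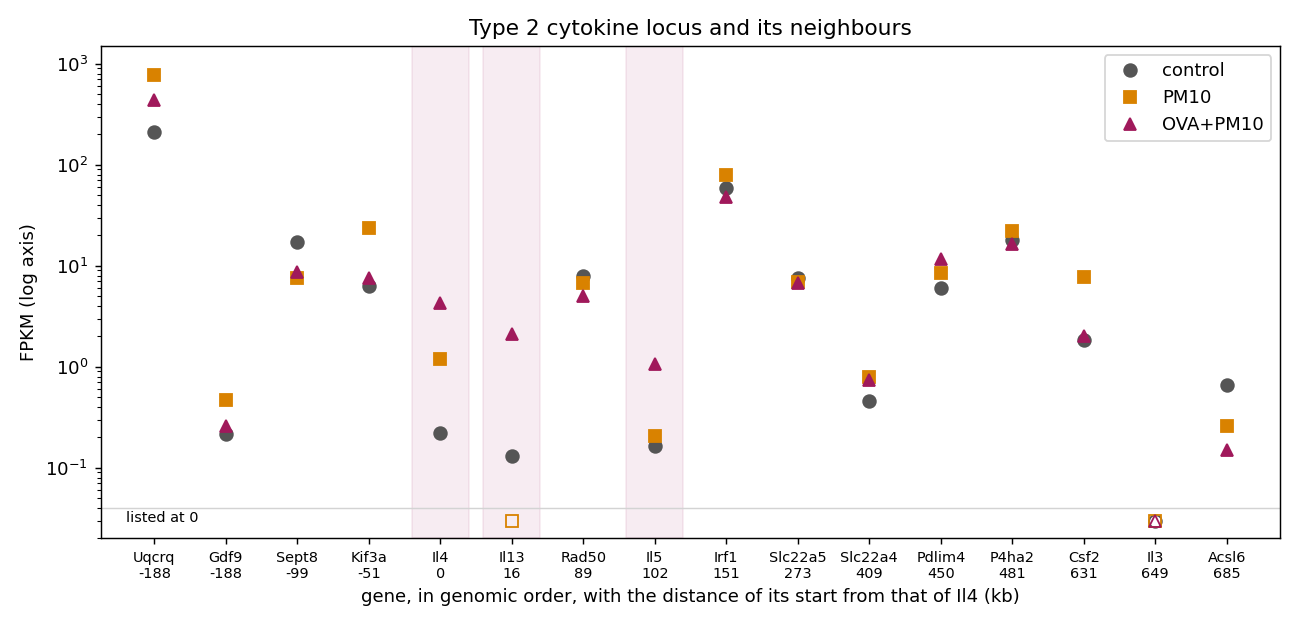
FPKM (log axis) of 16 genes of the chromosome 11 locus in genomic order, with the distance of each start from that of Il4 in kb and the 3 cytokines shaded; symbols are the libraries, and open symbols at the bottom are genes listed at 0. The OVA+PM10 library is highest for the shaded genes, with 4.28, 2.13 and 1.07 FPKM. The adjacent Rad50 is lowest there as deposited, but not after scaling to the same sum (log2 ratio 0.15 to PM10).

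Il1rl1 sits in a cluster of interleukin-1 receptor genes on chromosome 1. Of its neighbours, Il1rl2 and Slc9a2 shared its order (highest in OVA+PM10, lowest in PM10), although both were close to control in the OVA+PM10 library. Il18r1, the IL-18 receptor chain that starts 36.0 kb away, had 27.0, 33.0 and 26.2 FPKM, and Il18rap, its partner, 2.54, 2.77 and 1.82 FPKM. The IL-1 receptor Il1r1 had 6.93, 4.41 and 6.81 FPKM, and the decoy receptor Il1r2 4.84, 1.496 and 1.402 FPKM, lower than control in both exposed libraries (log2 ratios -1.23 and -1.28). Il1rl2, the IL-36 receptor, had 4.04, 0.507 and 4.22 FPKM. It was lower than control in the PM10 library and, at 1.79, higher in OVA+PM10 than in PM10. Of the others, Slc9a4 had 2.14, 3.74 and 1.49 FPKM, Map4k4 35.0, 33.7 and 21.3 FPKM, and Slc9a2 stayed below 1 FPKM.

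The partner chains and the signalling chain were mostly within 2-fold, as were most genes tested. Of 24 genes, all with at least 1 FPKM, 2 were higher and 1 was lower than control in the PM10 library (median log2 ratio -0.12). The shares of all genes were 13.6% and 13.9%. In the OVA+PM10 library 2 were higher and 1 lower (median 0.20), beside 9.95% and 8.68% of all genes. After scaling to the same sum, 14 and 6 of the 24 were lower and none was higher, with medians of -1.26 and -0.40. Stat6 had 34.2, 32.7 and 28.7 FPKM, Jak1 54.2, 45.7 and 35.9 FPKM, and the adaptor Myd88, which carries the signal of ST2, 15.8, 20.1 and 21.1 FPKM. The γ chain Il2rg had 35.2, 25.3 and 51.2 FPKM, and its kinase Jak3 4.49, 3.73 and 9.41 FPKM, higher in OVA+PM10 than in PM10 (log2 ratio 1.14).

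Il7r, the partner of Crlf2, was higher in the PM10 library, at 13.3 FPKM against 5.51 in the control and 7.42 in the OVA+PM10 library (log2 ratio to control 1.14, but 0.03 after scaling to the same sum). T cells and innate lymphoid cells also express it. Il1rap, the partner of ST2, had 6.45, 3.90 and 3.42 FPKM, so that its ratio to Il1rl1 was 3.96, 2.90 and 0.892. The 2 higher members in the OVA+PM10 library were Socs1 and Cish, feedback inhibitors of cytokine receptor signalling. Socs1 had 4.99, 6.79 and 13.2 FPKM (log2 ratio 1.25 to control) and Cish 11.4, 14.4 and 24.3 FPKM (1.02), values that became 0.70 and 0.42 after scaling to the same sum. Socs2 was highest in the PM10 library, at 138 FPKM against 34.9 and 65.4 (log2 ratio to control 1.95, or 0.73 after scaling to the same sum). The insulin receptor substrates Irs1 (4.44, 1.78 and 1.65 FPKM) and Irs2 (6.95, 0.107 and 4.60 FPKM), adaptors of the IL-4 receptor, were highest in the control library.

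A list of 23 other cytokines and receptors was named for type 2 responses but also held genes not specific to them, such as Il18 and Csf2. Of the 23, 14 reached 1 FPKM in the OVA+PM10 or control library, with 2 higher and 1 lower than control in OVA+PM10. Of all genes tested, 9.95% were higher and 8.68% lower. The eosinophil receptor Il5ra had 0.425, 0.203 and 1.96 FPKM (log2 ratio to control 1.06) and Csf2ra 13.4, 17.6 and 30.3 FPKM (1.12), while Il18 was lower, at 30.9, 28.1 and 7.05 FPKM (-1.99). After scaling to the same sum, no gene of this list was higher than control and 1 was lower. In the PM10 library 2 of 12 were higher than control and none was lower, beside 13.6% and 13.9% of all genes. The 2 were Csf2 and Il3ra, the IL-3 receptor chain (7.49, 25.6 and 11.6 FPKM). Neither passed 2-fold after scaling to the same sum. Il21r had 2.46, 1.13 and 3.94 FPKM. Il3, Il9, Il25 and Il31 were listed at 0 in all libraries, so that Il25, the other epithelial alarmin, had no value above 0. Csf2rb and Csf2rb2 are near-identical copies, and the division of reads between them is uncertain.

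**Figure D4:**
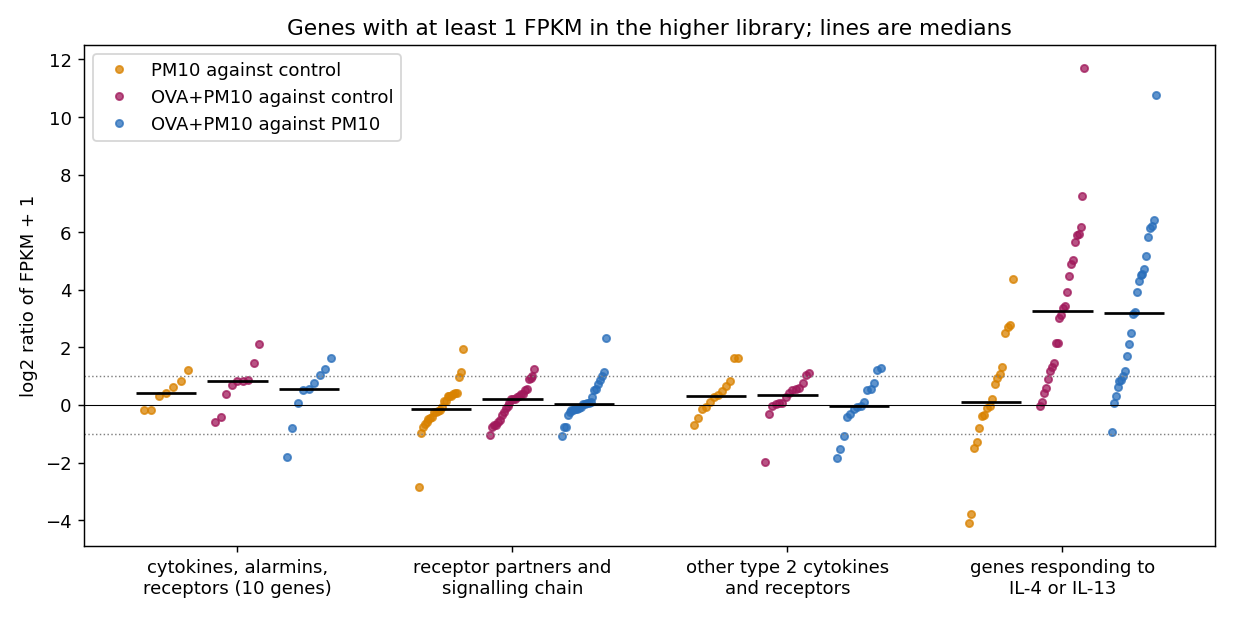
Log2 ratio of FPKM + 1 for single genes (points) of 4 lists in the 3 comparisons, with the list's median as a black line and dotted lines at 2-fold; genes at 0 in 1 library are included at FPKM + 1. The signalling chain centres near 0 (medians -0.12, 0.20 and 0.05), whereas the genes known to respond to IL-4 or IL-13 have medians of 3.26 and 3.20 in the OVA+PM10 comparisons and 0.09 for PM10 against control.

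Genes known to respond to IL-4 or IL-13 were mostly higher in the OVA+PM10 library. Of 24 such genes, 19 were higher than control in the OVA+PM10 library and none was lower, beside 9.95% and 8.68% of all genes. The list's median log2 ratio was 3.26 (Il4 had 2.11 and Il13 1.47 on this scale, which understates low genes). With 0.25 FPKM added the median was 3.49, beside 3.26 for Il4 and 2.65 for Il13. After scaling to the same sum 17 were higher, with a median of 2.77. Against the PM10 library 17 were higher and none was lower, beside 11.8% and 9.00% of all genes. Against control in the PM10 library itself, 6 of 18 were higher and 4 lower, beside 13.6% and 13.9% of all genes. Clca1, a mucus-associated protease of goblet cells, had 0.695, 2.24 and 5628 FPKM, Tff2, a trefoil factor, 5.60, 5.44 and 477 FPKM, and Agr2, which folds mucins, 3.25, 0.493 and 127 FPKM. Retnla, a gene of alternatively activated macrophages, had 245, 1611 and 37463 FPKM. Muc5ac and Fcgbp stood at 61.8 and 116 FPKM in the OVA+PM10 library and below 1 FPKM in both others. This list was chosen with these results known and is no independent evidence of its direction.

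Markers of possible sources of the cytokines are given beside them, and their part in the values was not tested. Of 13 genes of group 2 innate lymphoid and T helper 2 cells that reached 1 FPKM, 3 were higher and 1 lower in the OVA+PM10 library than in the control, beside the 9.95% and 8.68% of all genes. After scaling to the same sum, 1 of 15 was higher and 1 lower (median log2 ratio 0.10). The summed level of all 18 was 55.8, 77.0 and 85.8 FPKM. Gata3, a transcription factor that both cell types need, had 0.744, 3.32 and 0.663 FPKM and so was not highest where Il4, Il5 and Il13 were. Rora was highest in the control library (9.73, 3.85 and 4.23 FPKM). The chemokine receptor Cxcr6 had 4.38, 10.8 and 12.8 FPKM, Calca 1.26, 4.74 and 6.82 FPKM, Klrg1 3.90, 10.1 and 5.71 FPKM and Ltb4r1 2.60, 0.919 and 5.88 FPKM. The summed level of 11 T cell genes was 98.5, 200.4 and 169 FPKM, with 2 higher and none lower in OVA+PM10 than in control, whereas with libraries scaled to the same sum none was higher and 1 was lower.

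Mast cells and basophils can make IL-4 and IL-13 and carry ST2. Of 13 of their genes that reached 1 FPKM, 6 were higher and 5 lower in the OVA+PM10 library than in the control. Among all genes, 9.95% were higher and 8.68% lower. The sum of all 15 mast cell and basophil genes was 114, 88.4 and 114 FPKM. The basophil protease Prss34 had 0.129, 0.067 and 2.93 FPKM, and the mucosal mast cell proteases Mcpt1 and Mcpt2 had 4.84 and 5.13 FPKM in the OVA+PM10 library, against 0.159 and 0.114 FPKM in the control. Mcpt1 had 0.166 FPKM in the PM10 library, which listed Mcpt2 at 0. The connective tissue mast cell protease Mcpt4 was highest in the control library (8.35, 1.31 and 1.52 FPKM). Kit, Cpa3 and Gata2 were also among the 5 lower in OVA+PM10 than in control, with log2 ratios of -1.41, -1.22 and -1.78. Mcpt8 and Hdc were among the 6 higher, at 1.28 and 1.65. After scaling to the same sum Cma1 also passed 2-fold lower (-1.34), and Mcpt8 and Hdc stayed past 2-fold higher (1.16 and 1.03). Tpsb2 and Tpsab1, tryptases, were listed at 0 in the PM10 library, as Il13 was. In OVA+PM10 against control they went opposite ways, with log2 ratios of -1.03 (Tpsb2) and 1.65 (Tpsab1). Eosinophil genes, whose cells respond to IL-5 and can make IL-4, summed to 228, 314 and 834 FPKM over 11 genes, with Prg2 at 1.04 FPKM, listed at 0, and 191 FPKM. Of the 11, 8 were higher than control and none was lower in the OVA+PM10 library (6 and none after scaling to the same sum). In the PM10 library none of 7 was higher than control and 4 were lower (median log2 ratio -1.03), beside 13.6% and 13.9% of all genes. The sum was nevertheless above that of the control, mainly through Ear2 (128, 230.3 and 458 FPKM). Ear2 made up most of the sum in each library and was also among the chosen macrophage markers, so the sum is no measure of eosinophils alone.

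The genes with the most similar pattern over the 3 libraries were sought among 13449 genes with at least 1 FPKM, by the Euclidean distance between centred log2(FPKM + 1) values. With 3 libraries many genes share a pattern closely, and 31 lay within 0.25 of Il4, 125 of Il13, 457 of Il33, 333 of Il1rl1, 692 of Il4ra and 398 of Il13ra2. Nearest to Il4 were Aqp11 (distance 0.06; 2.65, 5.31 and 13.9 FPKM), Wdr38 and Zmynd10. Nearest to Il13 were Slc17a9 (distance 0.03; 0.716, 0.512 and 3.63 FPKM), Has3 and Slc6a20a. Il33 lay nearest to Qtrt1, Ppfia4 and Scpep1, Il1rl1 to Prr18, Pcp4l1 and Sidt1, Il4ra to Fam212b, Edc3 and Mpv17, and Il13ra2 to Pole, Cfap221 and Qprt, all at distances of at most 0.03.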

How the data were processed

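RNA from lung homogenate was sequenced in 3 libraries, 1 per group, made with a strand-preserving kit from 1.3 µg RNA each, per the labels' protocols. The authors deposited 1 FPKM value per gene and library. The unit was inferred from the values, as the headers hold none. TopHat and mm10 were used, per the submitters' processing notes. For the counting program, annotation, strand setting and multiply matching reads, nothing is given in the sources used here. Libraries were grouped by their titles.

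Log2 ratios of FPKM + 1 were computed for all genes in Python 3.11.15 with pandas 2.3.3. This scale understates changes of low genes. No test could be run. Summed FPKM was 546315 (control), 1293180 (PM10) and 855739 (OVA+PM10). Approximate reads were FPKM times the longest GENCODE M21 transcript (GRCm38, 22148 symbols or 95.5% matched), divided by the value of 1 read, taken as the peak of the lowest FPKM times length among genes with a single transcript. They cover no counting interval. The 10 genes and all lists were chosen with earlier results of these data known. Besides the 10, named genes were up to 6 per list with the largest ratios, fixed partner, signalling and locus genes, and the 3 most similar patterns for 6 members. Other genes named (Il9, Il25, Il31, Csf2rb, Csf2rb2, Cish, Gm12214, Krt6a and a few neighbours and list members) were chosen after their values were seen. The alternatives were 8 settings of the pseudocount, filter, scaling and threshold, and 1 chosen after seeing the data, the removal of a running median over 501 genes ordered by transcript length. The ratio and trend code was tested on simulated data.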

Additional observations from a re-analysis of the deposited data

How the results depend on the processing

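No paired analysis was possible because each group had 1 library, and no replicate could be left out. The counts of the 10 genes past the threshold were small, so most settings moved them. For PM10 against control, the 1 higher gene (Tslp) became 2 with 0.25 FPKM added (Il4 joined), 3 at 1.5-fold (Il4 and Crlf2 joined) and 0 with 5 FPKM added, at 4-fold, with the length trend removed and after scaling to the same sum. The 0 lower genes became 1 after scaling to the same sum (Il13ra1). For OVA+PM10 against control, the 2 higher genes became 4 with 0.25 FPKM added (Il5 and Il1rl1 joined), 6 at 1.5-fold (Il5, Il33, Il1rl1 and Crlf2 joined), 1 at 4-fold (Il4), and 0 with 5 FPKM added or a filter at 5 FPKM. With the length trend removed there were again 2, but Il1rl1 took the place of Il13. The 0 lower genes became 2 after scaling to the same sum (Tslp and Il4ra) and 1 at 1.5-fold or with the length trend removed (Tslp). For OVA+PM10 against PM10, the 3 higher genes became 6 after scaling to the same sum (Il33, Il13ra1 and Il13ra2 joined) and 0 with 5 FPKM added, with a filter at 5 FPKM or at 4-fold, and the 1 lower gene became 2 at 1.5-fold (Il4ra joined) and 0 with 5 FPKM added or at 4-fold. With the length trend removed there were again 3 higher, with Il5 in place of Il1rl1. A larger pseudocount or filter takes low genes out by construction, and the cause of the other moves was not tested.

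No called ratio of the 10 genes changed sign under another pseudocount, either scaling or removal of the length trend. Of ratios below 2-fold, 5 changed sign for scaling to the same sum and 4 for the length trend. That scaling moved the median log2 ratio of all genes to -1.03, -0.58 and 0.49 in the 3 comparisons, and the share of calls that were higher from 49.5% to 3.42%, from 53.4% to 15.5% and from 56.8% to 90.8%. Other settings moved that share by over 10 points as well. For PM10 against control it was 62.8% with 5 FPKM added and 36.6% at 4-fold. At 4-fold it was 42.9% in the second comparison and 72.3% in the third, where it was 41.6% with 5 FPKM added. Depth limits Il4, Il5, Il13 and Il13ra2 most, since each rested on 6 reads or fewer in the control library.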
